A study of Mus musculus with 87 samples.

Results

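RNA-seq of embryonic gut was compared with RNA-seq of embryonic lung at embryonic day 11.5 (E11.5). The comparison used 16 of the 64 RNA-seq libraries of a mouse series on deletions of boundaries between topologically associating domains (TADs), and its members were all 4 gut and all 12 lung libraries. The 4 guts came from line B4, with 2 embryos homozygous for a CRISPR/Cas9 deletion of a boundary that lies between Sim1 and Rfx6 on chromosome 10 (A41 and A43) and 2 wild-type embryos (A42 and A44). The 12 lungs came from line B2, with 6 embryos homozygous for a deletion of a boundary that lies between Tbx5 and Lhx5 on chromosome 5 and 6 wild-type embryos. Both lines were on the FVB background, wild-type embryos were littermates of the homozygous ones, and no embryo was treated. Of the lungs, 6 were male and 6 were female, with embryo codes E5403, E5406 and E5420, while neither sex nor embryo code was given for the guts. Each code was shared by more than 1 lung. It was not a term of the fit, which took the lungs as independent. Each organ was thus measured in 1 line only, so that organ, line and the preparation of the libraries cannot be told apart. No source says how the organs were dissected or that any library pooled embryos, and p-values measure the spread between these libraries.

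Gut and lung both grow out of the endodermal tube of the early embryo, and each is wrapped in mesenchyme from the neighboring lateral plate. The lung buds from the ventral foregut under the transcription factor Nkx2-1 and branches in exchange with a mesenchyme that is marked by Tbx4 and Tbx5 and secretes Wnt2 and Fgf10. The gut tube is patterned along its length by Hox genes and by factors such as Cdx2 and Pdx1, acquires a muscular wall that expresses Barx1, Nkx2-3 and Nkx3-2, and is colonized by neural crest cells that form the enteric nervous system. Liver and pancreas bud from the same tube just behind the stomach. In bulk tissue, fewer cells of a type and less RNA per cell cannot be told apart.

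The guts held 17084760 to 22683367 counts and the lungs 8391553 to 31793441. The 2 sets of libraries differed in the kinds of RNA they held. Mitochondrial ribosomal RNA, clustered histone genes and small noncoding RNAs together took 0.0323% to 0.0472% of the counts of the guts, against 19.8% to 22.1% in 10 of the lungs. The other 2 lungs, the wild-type E5420-07 and E5420-09, stood apart with 27.5% and 2.21%, and in E5420-09 the single gene Gm42418 took 62.7% of the counts. Hearts of the same B2 line held 0.0489% to 0.0748%, so that this feature went with the lung libraries and not with the line. Protein-coding genes took 97.0% to 97.2% of the counts in guts and 73.1% to 77.3% in the 10 lungs.

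The log2 fold change of protein-coding genes also moved with transcript length, a positive value here and throughout being higher in gut. In 10 classes by transcript length, which hold 907 to 1576 of these genes each, its median was 0.30 in the class with the shortest transcripts and -0.57 in the class with the longest (from 6680 bases), where 54.2% of genes were lower in gut and 11.1% were higher, against 22.2% lower and 29.4% higher over all protein-coding genes. When libraries were scaled within each class, these medians were 0.23 and -0.03. Where this scaling, or leaving out E5420-07 and E5420-09, made or ended the call of a gene named here, or moved a list's count by over 1.5 times, its value is given beside the result. Other counts of a list moved by at most 2 genes. The part of library preparation in any single difference was not tested.

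**Figure D1:**
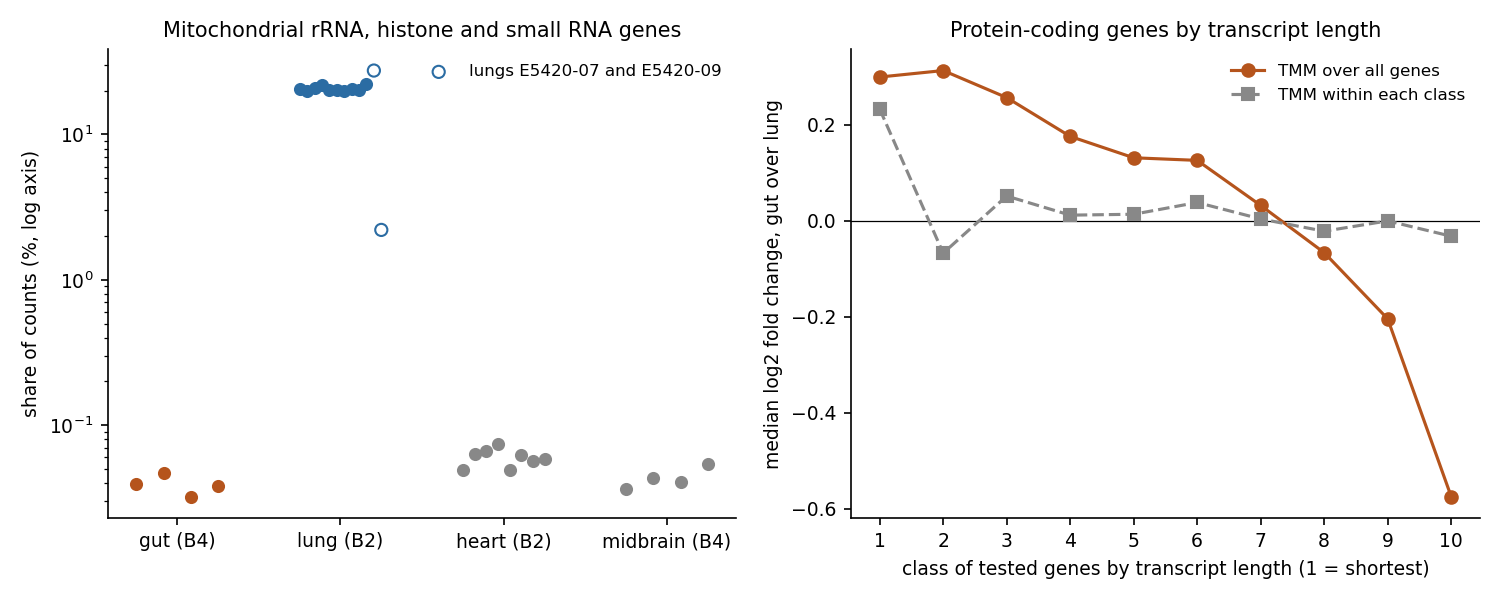
Left, share of counts (%, log axis) taken by mitochondrial rRNA, histone and small RNA genes, 1 point per library of gut (B4), lung (B2), heart (B2) and midbrain (B4). Right, median log2 fold change (gut over lung) of protein-coding genes in 10 classes by transcript length, with TMM scaling and with scaling within each class. Guts lie at or below 0.0472% and 10 lungs at 19.8% or above, and with TMM the median is 0.30 in the shortest class and -0.57 in the longest.

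Of 16128 genes tested with edgeR's quasi-likelihood test, 8618 (53.4%) differed between the organs at an adjusted p (Benjamini-Hochberg) under 0.05. Gut was higher for 4334 genes (26.9%) and lower for 4284 (26.6%), and the median log2 fold change of all genes was -0.02. In 2788 genes (17.3%) all 4 guts lay above all 12 lungs, and in 1906 (11.8%) all lay below. Without E5420-07 and E5420-09, 12235 of 16073 genes (76.1%) were called, 37.3% higher and 38.8% lower. Since most genes were called in 1 direction or the other, counts of list members are to be read against these shares, and the size of a difference and the overlap of the libraries are given with it. The filter on low counts could be passed on the 4 guts alone. List members near 0 in lungs could thus hardly be called lower in gut. Levels are CPM, counts scaled to a common library total with TMM factors, in the order A41, A42, A43 and A44 for guts and as lowest, median and highest for the 12 lungs. The TMM factor of E5420-09 was 0.142, against 0.915 to 1.11 for the other lungs, so that its low levels rest on few counts.

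Liver genes had the highest median difference of the lists. All 16 members of the hepatocyte list were called higher in gut, with a median log2 fold change of 6.53, beside 26.9% and -0.02 over all genes. Alb, which encodes the main plasma protein albumin, had 1104, 765.0, 672.3 and 822.9 CPM in guts, against 0, 0.709 and 11.6 CPM in lungs. The log2 fold change was 8.96 ± 0.86 (SE, adjusted p = 1.93e-07), and each gut lay far above each lung. Afp, which encodes the fetal albumin homolog alpha-fetoprotein, had 4358, 2471, 2978 and 2685 CPM in guts, against 1.22, 39.6 and 223.4 CPM in lungs (log2 fold change 5.93 ± 0.60, adjusted p = 3.78e-07). A41, a homozygous gut, was the highest library for both genes.

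The 15 genes furthest higher in gut, among those reaching 10 CPM with no overlap, were Serpina6, Alb, Ambp, Serpinf2, F12, Cpb2, Plg, Ugt2b34, Bhmt, Vtn, Rbp4, Apoa2, Serpina1a, Fgb and F2, with log2 fold changes of 9.16 to 6.81. They encode carriers of hormones, retinol and lipid (Serpina6, Rbp4, Apoa2), clotting factors and regulators of clot breakdown (F2, F12, Fgb, Plg, Serpinf2, Cpb2) and liver enzymes (Bhmt, Ugt2b34). Serpina6, which encodes the corticosteroid carrier of the plasma, had 470.5, 260.9, 314.0 and 306.6 CPM in guts, against 0, 0.065 and 2.74 CPM in lungs (9.16 ± 0.71, adjusted p = 1.47e-08). Fgb, a chain of fibrinogen, had 155.2, 80.1, 99.0 and 87.9 CPM in guts, against 0, 0.70 and 2.74 CPM in lungs (6.81 ± 0.42, adjusted p = 7.90e-10). Neither gene had an overlap between the organs. Serpina1a belongs to a family of near-identical copies, between which estimated counts can be split.

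Summed over the 16 hepatocyte genes, the guts held 4575 to 7521 CPM. The lungs held 12.6 to 409.2 CPM and did not form 1 group. The 4 homozygous lungs of code E5406 held 270.6 to 409.2 CPM and the 2 wild-type lungs of that code 60.6 and 69.3 CPM, while in code E5420 the homozygous lung held 40.4 CPM and the 3 wild-type lungs 12.6 to 33.2 CPM. In E5403 the homozygous lung held 171.5 CPM and the wild-type lung 46.4 CPM. The sum was thus lower in every lung than in any gut, and within each of the 3 codes it was higher in every homozygous lung than in any wild-type lung. Whether liver tissue was part of the dissected guts was not tested.

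Regulators of gut endoderm were also higher in gut. Of the 17 genes of the gut endoderm list 14 were tested, of which 10 were higher, 1 was lower and 3 were not called (median log2 fold change 2.09). Members near 0 in lungs could enter this count through the guts alone. Hnf4a, a nuclear receptor of liver and intestine, had 97.5, 36.8, 59.7 and 60.6 CPM in guts, against 0.234, 0.802 and 2.76 CPM in lungs (5.84 ± 0.32, adjusted p = 2.68e-10). Cdx2, the homeobox gene that specifies intestine, had 1.88, 2.10, 6.19 and 1.48 CPM in guts, against 0, 0 and 0.119 CPM in lungs, 8 of which had no count (6.90 ± 0.46, adjusted p = 2.57e-09). Cdx2 was thus low even in gut, and highest in the homozygous A43. Foxa3, a forkhead factor of the hindgut and liver, was 7.01-fold higher in gut (log2 fold change 2.81 ± 0.29, adjusted p = 3.75e-07).

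Ihh, a hedgehog ligand of the gut epithelium, had 6.07, 4.92, 4.13 and 3.96 CPM in guts, against 0, 0.141 and 0.369 CPM in lungs (4.62 ± 0.35, adjusted p = 9.44e-09). Gata4, a zinc finger factor of foregut endoderm and heart, had 89.7, 61.0, 85.7 and 77.8 CPM in guts, against 40.2, 61.5 and 96.1 CPM in lungs, and was not called (0.34 ± 0.16, adjusted p = 0.0871). Without E5420-07 and E5420-09 it was called higher (0.33, adjusted p = 0.0422), as 1 of then 11 higher genes of the list. Its relative Gata5 went the other way (-1.74 ± 0.24, adjusted p = 1.44e-05), as the 1 member of the list that was lower in gut. Cdx1 had at most 0.295 CPM in guts and 0.279 CPM in lungs, and together with Hnf4g and Isx it did not pass the filter on low counts. The enterocyte genes Vil1 (adjusted p = 0.102) and Cdh17 (adjusted p = 0.304) were at or under 1.35 CPM in every library and were not called.

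Of 21 pancreas genes 14 were tested, of which 11 were higher in gut, 1 was lower (2 without E5420-07 and E5420-09) and 2 were not called (median 3.41). Members near 0 in lungs could pass the filter through the guts alone, so the share of higher genes is not a test of the list. Pdx1, the homeobox gene of pancreas and duodenum, had 3.83, 1.94, 2.65 and 2.70 CPM in guts, against 0, 0.0422 and 0.187 CPM in lungs (5.74 ± 0.43, adjusted p = 8.43e-09). Nkx2-2, a homeobox gene of endocrine precursors, had 1.21, 0.686, 0.674 and 2.14 CPM in guts and no count in any lung. Against a floor of 3 counts over all lungs it was at least 115-fold higher in gut. Gcg, which encodes glucagon, had 20.2, 18.5, 5.39 and 21.9 CPM in guts, against 1.68, 3.48 and 8.92 CPM in lungs, so that A43 fell within the range of the lungs (2.10 ± 0.35, adjusted p = 8.84e-05). Ptf1a, the factor of the exocrine pancreas, had at most 0.343 CPM in guts and no count in lungs, and was not tested.

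Mesenchyme of the gut wall gave the next group. All 21 genes of its list were tested, of which 13 were higher, 3 were lower and 5 were not called (median 1.10). Nkx2-3, a homeobox gene of gut and spleen mesenchyme, had 16.8, 21.004, 34.2 and 13.2 CPM in guts, against 0, 0.276 and 0.677 CPM in lungs (6.11 ± 0.31, adjusted p = 1.23e-10). Barx1, which marks stomach mesenchyme, had 74.4, 52.6, 52.3 and 49.2 CPM in guts, against 1.09, 1.78 and 6.77 CPM in lungs (4.29 ± 0.39, adjusted p = 9.54e-08). Nkx3-2, also known from stomach and spleen, had 6.10, 5.07, 4.76 and 4.68 CPM in guts, against 0, 0.0826 and 0.177 CPM in lungs (6.03 ± 0.33, adjusted p = 2.28e-10). For none of these 3 genes did a gut overlap with a lung.

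Hand1 and Hand2, paired basic helix-loop-helix factors of lateral plate mesoderm, differed in size. Hand1 had 27.3, 26.8, 47.1 and 12.7 CPM in guts, against 0, 0.28 and 1.35 CPM in lungs (6.09 ± 0.35, adjusted p = 3.63e-10). Hand2 had 69.0, 66.9, 78.5 and 65.7 CPM in guts, against 4.12, 8.06 and 13.7 CPM in lungs (3.10 ± 0.17, adjusted p = 2.28e-10). Six2, a homeobox gene of the pyloric region, was 17.2-fold higher in gut (4.11 ± 0.27, adjusted p = 1.65e-09). Hlx, a homeobox gene needed for growth of gut and liver, was 2.14-fold higher (1.10 ± 0.26, adjusted p = 0.00194), but E5420-07, at 72.7 CPM, lay within the guts.

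The forkhead genes of the list did not follow it. Foxl1, which is expressed beneath the gut epithelium, had 3.30, 6.40, 4.51 and 4.99 CPM in guts, against 12.6, 26.7 and 50.3 CPM in lungs (-2.57 ± 0.26, adjusted p = 3.17e-07). Foxf1, a hedgehog target in the mesenchyme of both organs, had 82.3, 77.9, 108.6 and 74.2 CPM in guts, against 115.7, 165.3 and 287.2 CPM in lungs (-1.004 ± 0.18, adjusted p = 0.000171). Both were lower in every gut than in any lung. Foxf2 (adjusted p = 0.659) and Isl1, a LIM homeobox gene (adjusted p = 0.87), had overlapping values and were not called.

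Lung mesenchyme genes were lower in gut. All 16 genes of the list were tested, of which 2 were higher, 11 were lower and 3 were not called (median -1.34, beside 26.6% lower over all genes). Tbx4, a T-box gene of lung and hindlimb mesenchyme, had 9.19, 14.7, 15.5 and 10.6 CPM in guts, against 83.5, 95.2 and 159.5 CPM in lungs (-2.98 ± 0.19, adjusted p = 1.36e-09). Wnt2, a ligand of lung specification, had 14.2, 16.4, 19.5 and 10.3 CPM in guts, against 45.6, 47.5 and 86.1 CPM in lungs (-1.77 ± 0.19, adjusted p = 6.67e-07). Rspo2, a secreted amplifier of Wnt signals, was 0.177 times the lung level in gut (-2.50 ± 0.19, adjusted p = 1.26e-08). None of these genes was absent from gut, and their ranges did not overlap.

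Tbx5, a T-box gene of lung, heart and forelimb, lies beside the boundary that the homozygous lungs lack, so it was read by genotype. It had 20.6, 22.9, 29.1 and 27.1 CPM in guts, against 66.1 to 90.5 CPM in homozygous lungs and 100.4 to 192.8 CPM in wild-type lungs. The log2 fold change was -2.04 ± 0.22 over both genotypes (adjusted p = 6.84e-07), -1.67 in homozygous embryos alone and -2.48 in wild-type embryos alone. Gut was lower than lung in both genotypes, and the lungs of the 2 genotypes did not overlap. Its neighbor Tbx3 was not called (-0.28 ± 0.16, adjusted p = 0.145), while Tbx2 was lower in gut (-1.52 ± 0.29, adjusted p = 0.000268). Fgf10, the ligand that drives lung branching, ran against the list, with 13.3, 11.4, 10.4 and 10.9 CPM in guts and 4.50, 7.29 and 11.7 CPM in lungs (0.66 ± 0.18, adjusted p = 0.00436).

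Of 16 lung epithelium genes, 13 were lower in gut, none was higher and 3 were not called (median -1.64). Nkx2-1 had 2.41, 4.04, 5.39 and 6.41 CPM in guts, against 8.64, 11.4 and 30.2 CPM in lungs (-1.51 ± 0.27, adjusted p = 0.000174). The gene was detected in every gut at less than every lung, and no gut library was free of it. Wnt7b, a ligand of the lung epithelium, had 10.6, 14.3, 19.6 and 15.4 CPM in guts, against 78.8, 93.5 and 209.0 CPM in lungs (-2.75 ± 0.24, adjusted p = 6.78e-08). Etv5, an effector of FGF signals at branch tips, had 51.4, 46.0, 57.2 and 53.6 CPM in guts, against 148.7, 196.9 and 270.5 CPM in lungs (-1.92 ± 0.13, adjusted p = 3.14e-09).

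The homeobox genes Irx1 (-2.23 ± 0.29, adjusted p = 6.02e-06) and Irx2 (-2.73 ± 0.25, adjusted p = 1.09e-07) were lower in gut, with no overlap. Foxp2, a forkhead gene of the distal lung, was lower as well (-1.65 ± 0.23, adjusted p = 1.08e-05), with 1 lung, E5420-07, inside the range of the guts at 47.6 CPM. Cldn18, which encodes a tight junction protein of lung and stomach, had 0.674, 0.762, 1.43 and 1.54 CPM in guts, against 6.33, 11.3 and 15.1 CPM in lungs (-3.28 ± 0.28, adjusted p = 4.72e-08). Sftpb, which encodes a surfactant protein, was low throughout, with at most 0.463 CPM in guts and at least 0.728 CPM in lungs (-3.14 ± 0.47, adjusted p = 2.72e-05). Sox9, a factor of branch tips (adjusted p = 0.38), and Sox2, a factor of the proximal airway and foregut (adjusted p = 0.524), were not called.

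**Figure D2:**
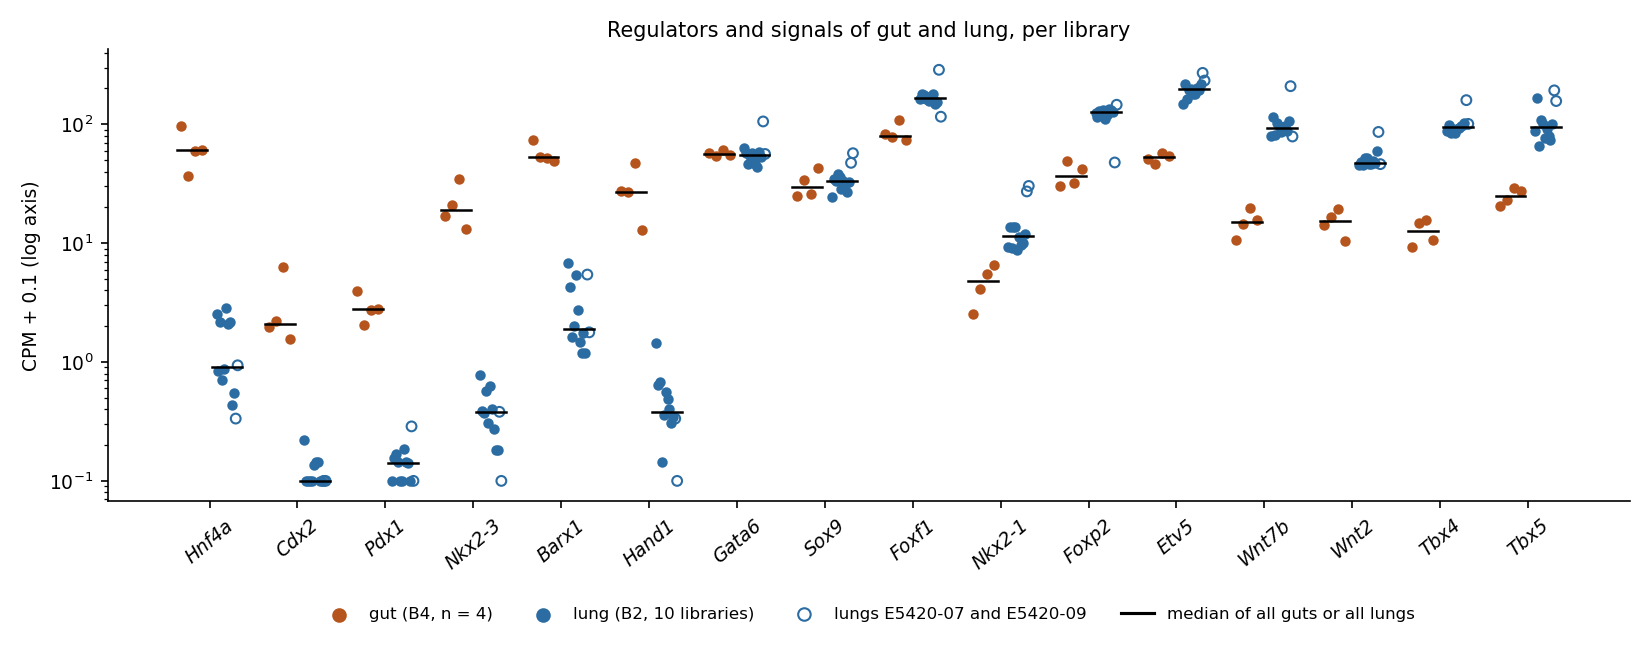
Levels of regulators and signals of gut and lung (CPM + 0.1, log axis), 1 point per library, with guts left of lungs for each gene and E5420-07 and E5420-09 drawn apart. Hnf4a, Barx1 and Nkx2-3 are above every lung in all 4 guts, Tbx4 and Wnt7b are below every lung, and Sox9 and Gata6 overlap.

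Genes that both epithelia use did not move together. Of the 17 genes of the shared list 16 were tested, of which 5 were higher, 7 were lower and 4 were not called (median -0.08). The pioneer factors Foxa1 and Foxa2 went opposite ways. Foxa1 had 16.6, 11.02, 15.0 and 11.9 CPM in guts, against 5.49, 7.70 and 20.1 CPM in lungs (0.67 ± 0.22, adjusted p = 0.0173). Foxa2 had 10.7, 8.96, 9.10 and 6.59 CPM in guts, against 12.9, 21.8 and 55.0 CPM in lungs (-1.42 ± 0.28, adjusted p = 0.0004). Of these, Foxa2 had no overlap between the organs, while the call of Foxa1 was lost without A41 (adjusted p = 0.11) or without A43 (0.081). Foxa1 overlapped only through E5420-07 (14.1 CPM) and E5420-09 (20.1 CPM), with at most 9.99 CPM in the other lungs.

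The epithelial adhesion genes split as well. Epcam was lower in gut (-0.79 ± 0.15, adjusted p = 0.000328) and Cdh1, which encodes E-cadherin, was higher (0.45 ± 0.18, adjusted p = 0.048), both with overlap. For Cdh1 the overlap came only from E5420-07 (25.8 CPM) and E5420-09 (46.1 CPM). The other lungs had at most 24.3 CPM and the guts at least 25.3 CPM. The call of Cdh1 was lost without any 1 of 13 of the 16 libraries, up to an adjusted p of 0.239 without A41. Shh, the hedgehog ligand of the early endoderm, was 0.655 times the lung level in gut (-0.61 ± 0.24, adjusted p = 0.0411), a call that was lost without any 1 of 7 libraries (A41, A42, A44 and 4 lungs), up to an adjusted p of 0.195 without A44. Gata6, a factor of endoderm and mesoderm, had 57.0, 53.6, 60.3 and 55.0 CPM in guts, against 43.6, 54.9 and 105.5 CPM in lungs, and was not called (adjusted p = 0.928). Of 12 smooth muscle genes 2 were higher (none when scaled by length class), 5 were lower and 5 were not called, and Acta2, smooth muscle actin (adjusted p = 0.751), and Actg2, its enteric relative (adjusted p = 0.459), were among the last. Myocd, the coactivator of that program, was lower in every gut (-2.47 ± 0.30, adjusted p = 3.47e-06), and Des, which encodes desmin, was 1.63-fold higher with overlap (0.70 ± 0.28, adjusted p = 0.0448, and 0.0781 when scaled by length class). The call of Des was lost without any 1 of 14 libraries, up to an adjusted p of 0.193 without A43.

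Hox genes sorted by paralogue number. These genes lie in 4 clusters, and their paralogue number follows the order along the body axis from head to tail. Of 38 genes 30 were tested, and of these 16 were higher in gut, 7 were lower and 7 were not called. Of 17 genes of paralogues 1 to 6, 16 were tested, with 4 higher, 7 lower and a median log2 fold change of -0.42. Of 21 genes of paralogues 7 to 13, 14 were tested, with 12 higher, none lower and a median of 4.38. Those near 0 in lungs could pass the filter through the guts alone and could hardly be called lower. The count of this class is therefore a description and not a test.

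Among the low paralogues, Hoxa5, which the lung mesenchyme needs, had 23.3, 30.95, 30.99 and 37.1 CPM in guts, against 45.2, 55.0 and 82.1 CPM in lungs (-0.88 ± 0.15, adjusted p = 8.35e-05). Hoxa2, Hoxa4, Hoxa6, Hoxb2, Hoxb3 and Hoxb4 were lower too, with log2 fold changes of -1.28 to -0.73, although Hoxa6 lost its call without any 1 of the 4 guts or 2 of the lungs (adjusted p up to 0.101, without A44). The 4 higher genes, Hoxc4, Hoxc5, Hoxc6 and Hoxd4, were all in clusters C and D, and Hoxd4 lost its call without A42 (adjusted p = 0.164). Hoxc6 was the most changed of them (5.23 ± 0.38, adjusted p = 5.68e-09).

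Among the high paralogues, Hoxb8 had 12.6, 11.4, 12 and 13.4 CPM in guts, against 0, 0.208 and 1.73 CPM in lungs (5.15 ± 0.38, adjusted p = 8.79e-09). Hoxc8 had 5.04, 6.37, 8.55 and 10.7 CPM in guts, against 0, 0.19 and 0.30 CPM in lungs (5.43 ± 0.34, adjusted p = 1.08e-09), and Hoxc9 had the largest difference of these Hox genes (5.62 ± 0.52). Hoxa7, Hoxa9, Hoxa10, Hoxa11, Hoxb7, Hoxb9, Hoxd8, Hoxd9 and Hoxd11 were higher by 2.71 to 5.57 on the log2 scale. The wild-type A44 was lowest of the 4 guts for Hoxa10, Hoxa11 and Hoxd11. Hoxa11 had 1.99, 4.04, 5.39 and 0.0942 CPM in guts and at most 1.11 CPM in lungs, and Hoxa10 had 1.41 CPM in A44, against 5.61 to 10.8 CPM in the other 3 guts. Hoxa13 (adjusted p = 0.402) and Hoxd13 (adjusted p = 0.135), the last genes of their clusters, were not called and were at most 2.29 CPM in any gut. The 8 genes that did not pass the filter were Hoxb13, Hoxc10, Hoxc11, Hoxc12, Hoxc13, Hoxd1, Hoxd10 and Hoxd12. Of these, Hoxc10 had 3.87, 6.82, 4.00 and 0.251 CPM in guts and at most 0.0829 CPM in lungs. Hoxd10 had 1.67, 3.51, 8.38 and 0.314 CPM in guts and at most 0.398 CPM in lungs. Both were lowest of the guts in A44.

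**Figure D3:**
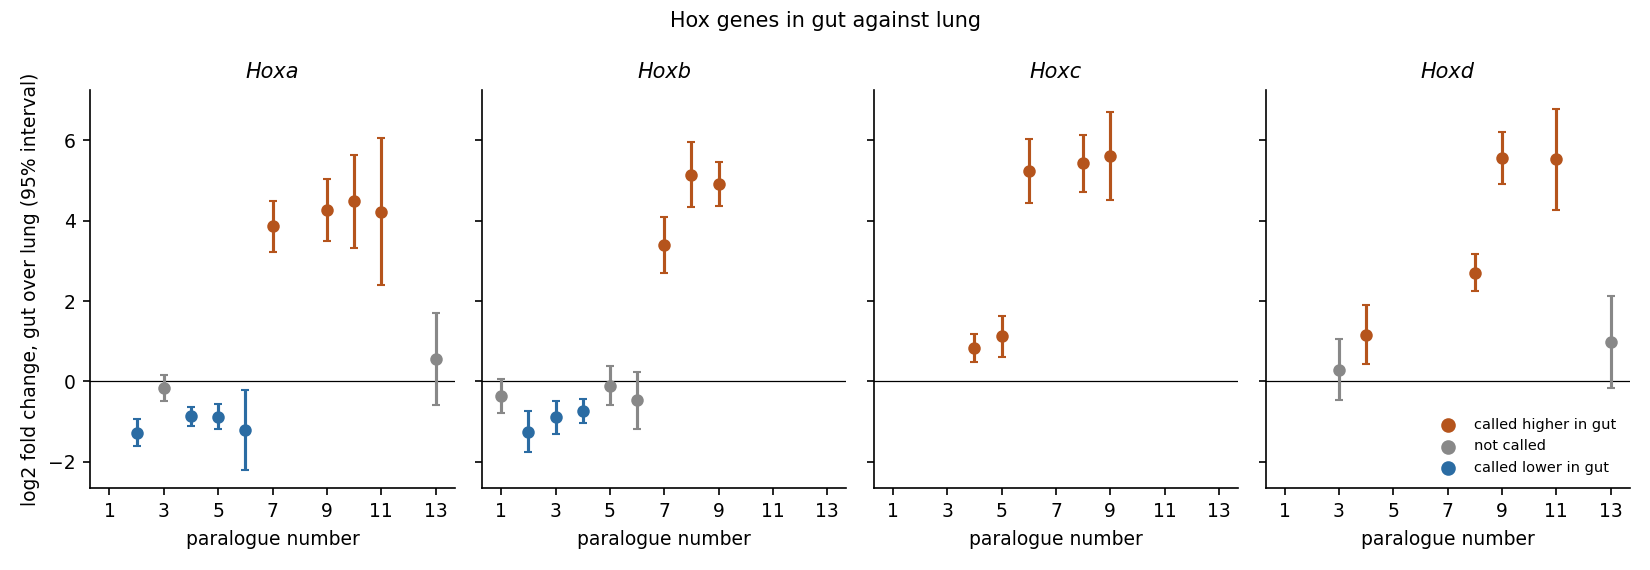
Log2 fold change (gut over lung, with 95% interval) of 30 tested Hox genes against its paralogue number, 1 panel per cluster. Paralogues 7 to 11 lie between 2.71 and 5.62, while in clusters A and B paralogues 1 to 6 lie between -1.28 and -0.11.

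The enteric neural crest list gave 3 higher, 2 lower and 10 uncalled genes of 15 (median -0.07), with 2 higher and 4 lower when scaled by length class. Ret, the receptor that guides these cells, had 21.9, 24.1, 23.9 and 15.8 CPM in guts, against 9.99, 12.03 and 20.6 CPM in lungs (0.69 ± 0.14, adjusted p = 0.000718). The gene was thus present in lung, with gut 1.61-fold higher. Sox10, the crest and glial factor, was not called (-0.34 ± 0.21, adjusted p = 0.189), but was called lower when scaled by length class (-0.51, adjusted p = 0.0491). Ednrb, the receptor for endothelin 3, was lower in gut (-0.97 ± 0.23, adjusted p = 0.00167), although the lung E5420-07, at 34.2 CPM, lay within the guts.

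Of 7 ligands that guide or feed these cells, 3 were higher (Gdnf, Edn3 and Ihh), 2 were lower (Shh and Sema3a, a repellent semaphorin, at -0.97 ± 0.27 with adjusted p = 0.00662) and 2 were not called, with a median of 0.14. When scaled by length class 2 were higher and 2 were lower. For Sema3a the lung E5420-07, at 23.8 CPM, lay below every gut. Gdnf, the ligand of Ret, had 7.84, 5.41, 8.46 and 5.46 CPM in guts, against 0.797, 1.92 and 5.43 CPM in lungs (1.57 ± 0.26, adjusted p = 9.13e-05). Edn3, the ligand of Ednrb, was 1.39-fold higher with overlap (0.47 ± 0.17, adjusted p = 0.0268, and 0.0749 when scaled by length class), and its adjusted p was 0.12 without A42, 0.219 without A43 and 0.0506 without the homozygous lung E5406-06. Of 13 neuronal genes 7 were higher, 1 was lower and 5 were not called (median 0.97). Stmn2, a protein of growing axons, had 1.77, 14.03, 3.54 and 3.49 CPM in guts, against 0.469, 1.32 and 4.19 CPM in lungs (1.92 ± 0.42, adjusted p = 0.000986). The wild-type A42 stood highest for it, and for the summed neuronal list with 224.0 CPM, against 93.0 to 144.8 CPM in the other guts and 51.0 to 119.9 CPM in lungs.

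Signaling pathways differed by member. Of 14 hedgehog genes 3 were higher, 9 were lower and 2 were not called (median -0.84). Ptch1, receptor and target of the pathway, had 103.3, 85.8, 122.4 and 88.8 CPM in guts, against 148.4, 180.9 and 222.2 CPM in lungs (-0.85 ± 0.13, adjusted p = 3.18e-05). Gli1, a transcription factor and target, was 0.95 lower on the log2 scale in gut (-0.95 ± 0.20, adjusted p = 0.000772), and Hhip, which binds the ligands, was lower by more (-1.71 ± 0.16, adjusted p = 1.24e-07). These 3 targets, and Shh, were lower in gut, while Ihh and Dhh were the ligands that were higher. The call of Dhh was lost without A41 (adjusted p = 0.0667) or without A42 (0.124), and that of Ptch1 when scaled by length class (-0.31, adjusted p = 0.0932).

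Of 29 Wnt genes 13 were higher, 14 were lower and 2 were not called (median -0.12). On the lower side were the targets Lef1 (-2.02 ± 0.16, adjusted p = 2.02e-08) and Axin2, with 21.7, 23.5, 18.9 and 21.6 CPM in guts and 48.5, 54.2 and 100.05 CPM in lungs (-1.45 ± 0.16, adjusted p = 8.75e-07). On the higher side were the ligands Wnt5a, with 34.6, 51.5, 50.2 and 39.7 CPM in guts and 10.5, 14.2 and 23.2 CPM in lungs (1.59 ± 0.16, adjusted p = 4.59e-07), and Wnt6 (2.85 ± 0.24, adjusted p = 3.93e-08). Secreted inhibitors of the pathway were among the higher genes, with Sfrp5, Frzb, Dkk1, Dkk2 and Wif1 between 1.88 and 3.44 on the log2 scale. The R-spondins split, since Rspo1 and Rspo2 were lower in gut and Rspo3 was higher (2.34 ± 0.23, adjusted p = 2.82e-07).

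In the FGF list 4 of 17 tested genes were higher and 7 were lower, among them Fgfr2, the epithelial receptor of Fgf10, with 61.3, 60.4, 63.2 and 48.7 CPM in guts and 106.9, 133.8 and 150.8 CPM in lungs (-1.19 ± 0.11, adjusted p = 9.76e-08). In the BMP list 6 of 25 were higher and 11 were lower. Its ligands Bmp4 (-0.80 ± 0.18, adjusted p = 0.00116) and Bmp7 (-0.62 ± 0.16, adjusted p = 0.00419) were lower in gut, while Bmp2 was higher (1.26 ± 0.22, adjusted p = 0.000106). Both directions held further ligands of the list, and Bmp2 was not the furthest higher member. In the retinoic acid list 4 of 15 were higher and 5 were lower, and Rarb, a receptor and target, was 0.55 lower on the log2 scale (-0.55 ± 0.10, adjusted p = 0.000166). Rbp4 of that list is also a liver gene, and Crabp1, a carrier of retinoic acid inside neural cells, was higher (2.66 ± 0.24, adjusted p = 1.09e-07).

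**Figure D4:**
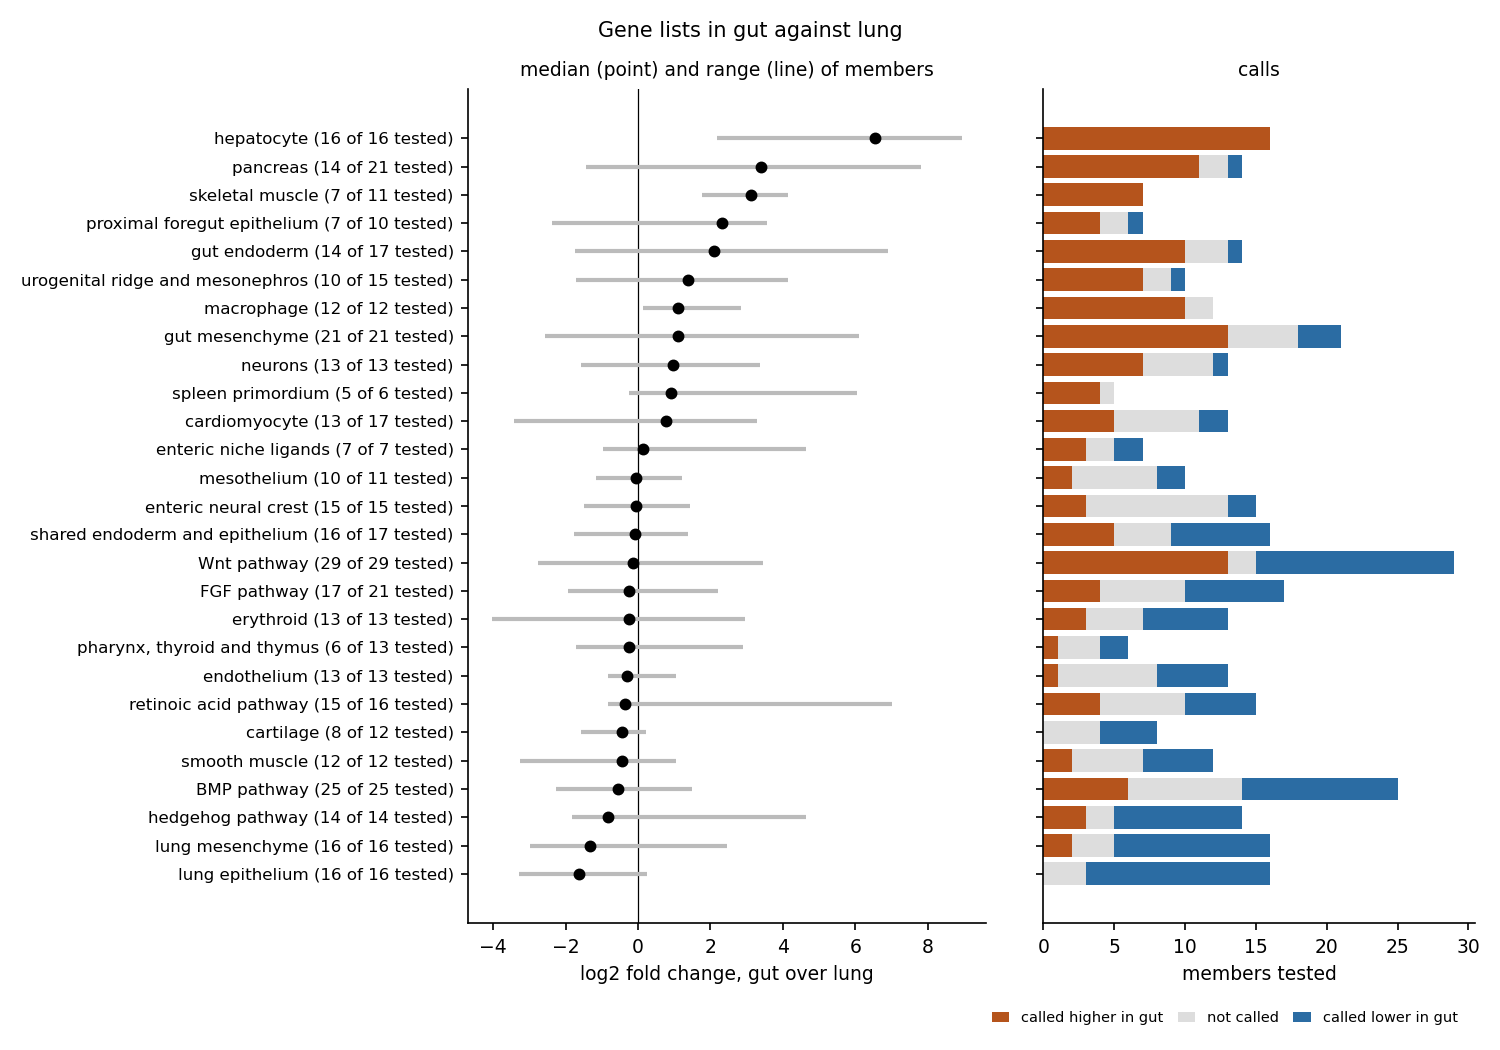
Gene lists in gut against lung. Left, median (point) and range (line) of the log2 fold change of tested members. Right, numbers of members called higher, called lower and not called. Hepatocyte genes have the highest median, 6.53, and lung epithelium genes the lowest, -1.64.

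Markers of other cell types moved with the organs too. Of 13 erythroid genes 3 were higher and 6 were lower. The 3 higher ones, Gata1 (2.95 ± 0.27, adjusted p = 1.36e-07), Klf1 (2.11 ± 0.24, adjusted p = 1.19e-06) and Epor (1.57 ± 0.19, adjusted p = 3.17e-06), encode the regulators and the cytokine receptor of erythroid precursors. Hbb-y and Hba-x, globins of the first red cells from the yolk sac, were lower in gut. Hbb-y had 2293, 4158, 3294 and 1914 CPM in guts, against 4197, 8833 and 18553 CPM in lungs (-1.61 ± 0.37, adjusted p = 0.00153). Gata1 had 51.7, 46.6, 51.0 and 60.9 CPM in guts, against 2.81, 7.41 and 10.6 CPM in lungs.

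Of 12 macrophage genes 10 were higher and 2 were not called (median 1.11), led by Lyz2, which encodes lysozyme, with 18.1, 20.9, 18.3 and 24.4 CPM in guts and 0.838, 2.79 and 4.28 CPM in lungs (2.84 ± 0.24, adjusted p = 3.43e-08). All 7 tested genes of the 11 skeletal muscle genes were higher, with the wild-type A44 far above the other guts. Muscle genes near 0 in lungs could pass the filter through the guts alone, so this count is not a test. Myog, the regulator of muscle differentiation, had 3.83, 8.88, 5.09 and 37.1 CPM in guts, against 0, 0.564 and 2.03 CPM in lungs (4.15 ± 0.66, adjusted p = 5.54e-05). The summed list was 151.1 CPM in A44, 10.9 to 26.8 CPM in the other guts and 2.24 to 14.7 CPM in lungs. Of 10 tested urogenital genes of 15, 7 were higher (median 1.39), among them Wt1, of mesothelium and kidney (0.91 ± 0.13, adjusted p = 1.55e-05). Wt1 had 32.6 and 30.6 CPM in the homozygous A41 and A43, and 52.4 and 44.2 CPM in the wild-type A42 and A44. Without E5420-07 and E5420-09 its organ effect differed between genotypes in edgeR (-0.71 on the log2 scale, adjusted p = 0.0279).

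Within the urogenital list, 3 genes that did not pass the filter followed the guts by genotype, and are named because their values had been seen. Nr5a1, a factor of gonad and adrenal, had 8.88 and 3.36 CPM in the wild-type A42 and A44 and 0 and 0.0842 CPM in the homozygous A41 and A43. Emx2, of gonad and kidney, had 6.37 and 7.25 CPM in the wild-type guts and 0 and 0.253 CPM in the homozygous ones, and Pax2, of the nephric duct, 1.52 and 0.628 CPM in the wild-type guts with no count in the homozygous ones. The part of these transcripts in other differences between guts was not tested. Not every gene of the urogenital list was higher in the wild-type guts. Lists of endothelium (1 higher and 5 lower of 13), cartilage (0 higher and 4 lower of 8 tested) and heart muscle (5 higher and 2 lower of 13 tested) had medians of -0.31, -0.44 and 0.78. Without E5420-07 and E5420-09 the endothelial list had 2 higher and 7 lower. The mesothelium list had 2 higher and 2 lower of 10 tested genes, and 4 higher and 3 lower without those lungs. The spleen primordium list had 4 higher and none lower of 5 tested (1 lower without those lungs), the proximal foregut epithelium list 4 higher and 1 lower of 7 tested, and the pharynx, thyroid and thymus list 1 higher and 2 lower of 6 tested (4 lower when scaled by length class). The pan-endothelial gene Pecam1 was not called (adjusted p = 0.62).

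On the lung side, the 15 genes furthest from gut were small RNAs and histone genes: Rpph1, Rmrp, Rprl3, Rn7sk, Rnu3a, Rnu3b1, Rnu3b2, Rnu3b3, Rnu3b4, Rnu2-10, Rnu1a1, Scarna13, Snora73a, Hist1h2ac and Hist1h2ao. Hist1h2ao reached the minimum of 10 CPM only through E5420-07 (103.1 CPM) and E5420-09 (411.6 CPM), with 0.664 to 2.04 CPM in the other 10 lungs and no count in guts. Rpph1, the RNA of ribonuclease P, had no count in any gut, against 500.5, 1231 and 3480 CPM in lungs, which is at least 51807-fold lower in gut at a floor of 3 counts over the guts. Rn7sk, the 7SK RNA, had 0.142 to 0.534 CPM in guts and 8290 to 23162 CPM in lungs. Members of the Rnu3b and histone families are near-identical copies, between which counts can be split. Among protein-coding genes the furthest, taken by the same rule after these values had been seen, included Lama2 (-3.18 ± 0.23) and Lama3 (-3.37 ± 0.20), which encode laminin chains, the giant cadherins Fat1 (-2.97 ± 0.19) and Fat4 (-2.98 ± 0.16), and the titin gene Ttn (-3.41 ± 0.67). These 5 have long transcripts, of 9614 to 106824 bases, and when scaled by length class their log2 fold changes were -2.86 to -2.41. The rule also gave Cldn18, described above, and genes that are not named here. Long transcripts are thus not shown to be a trait of the whole group.

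The other tissues of the series place these genes, as medians of CPM scaled over all 64 libraries. Cdx2 had a median of 2.39 CPM in gut and 0 in every other tissue, and Alb had 956.4 CPM in gut, 0.827 CPM in lung and 14.1 CPM in forebrain. Several genes that separated gut from lung were as high elsewhere. Barx1 had 63.6 CPM in gut, 2.10 CPM in lung and 96.7 CPM in face, and Hand2 had 81.6 CPM in gut, 9.62 CPM in lung and 211.7 CPM in heart. On the lung side, Tbx4 had 15.3 CPM in gut and 113.4 CPM in lung, with at most 3.31 CPM elsewhere, whereas Nkx2-1 had 5.71 CPM in gut and 13.7 CPM in lung, beside 30.6 CPM in face and 33.2 CPM in forebrain.

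**Figure D5:**
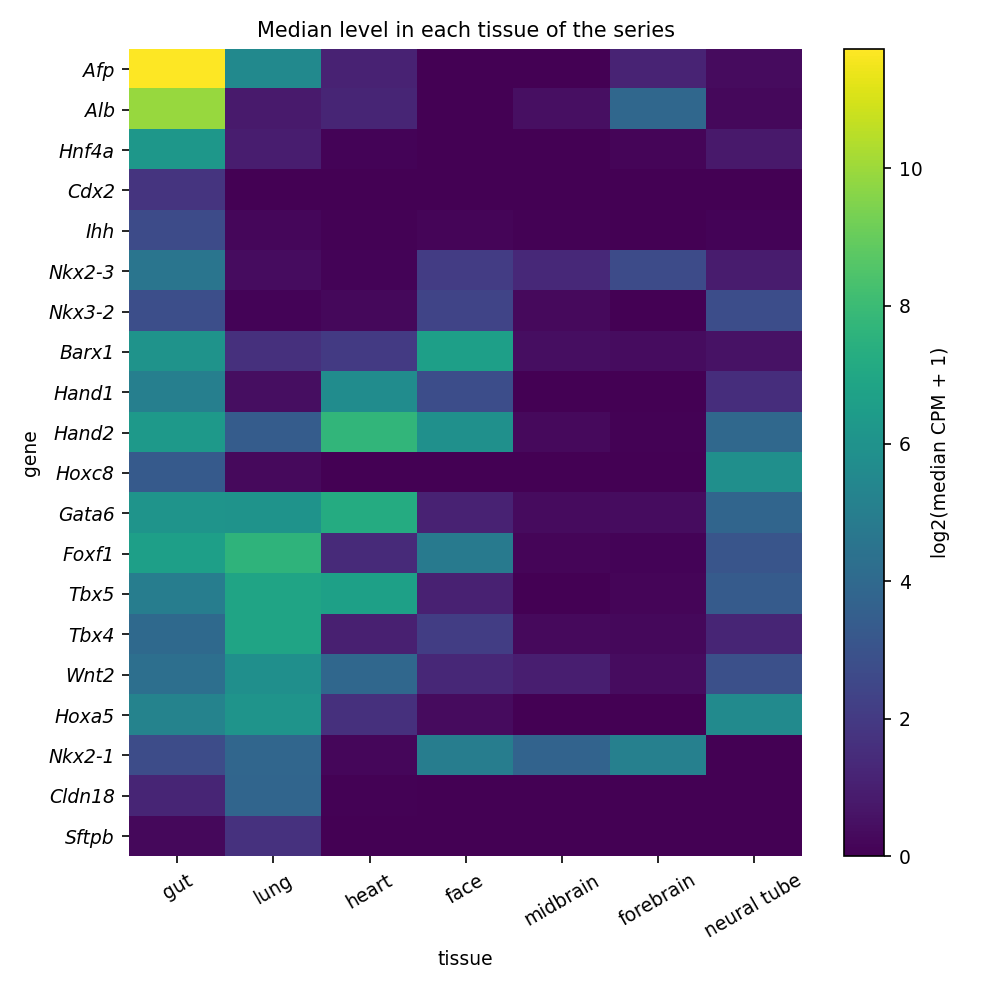
Median level of each gene in each tissue of the series, as log2(median CPM + 1), with gut and lung leftmost. Hnf4a and Cdx2 are brightest in gut and Tbx4 in lung, while Barx1 and Hand2 are also bright in face or heart.

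Genotype was asked as a difference of the organ effect between homozygous and wild-type embryos, which sets the B4 deletion in gut against the B2 deletion in lung, so that equal effects of both deletions would cancel. With edgeR, 0 of 16128 genes were called (633 at an unadjusted p under 0.05, smallest adjusted p 0.0752), and the key regulators of both organs had adjusted p of 0.797 or more in that fit. DESeq2 called 21 of 16101 genes (0.13%), and edgeR without E5420-07 and E5420-09 called 32 of 16073 (0.199%), of which 12 were called by both. Irx2, a key lung gene, was among the 32 (difference of -0.97 on the log2 scale, adjusted p = 0.0375), with medians of 3.25 CPM in homozygous guts and 7.43 CPM in wild-type guts, beside 27.7 CPM in homozygous lungs and 33.8 CPM in wild-type lungs. Foxd1, a forkhead gene of kidney stroma, was chosen by value, since its adjusted p was the smallest in the edgeR and DESeq2 fits of all libraries. It had medians of 0.419 CPM in homozygous guts and 15.2 CPM in wild-type guts, beside 3.26 CPM in homozygous lungs and 2.86 CPM in wild-type lungs. The urogenital genes Nr5a1 and Emx2 were also higher in both wild-type guts, but so were genes of other lists, such as Myog and Irx2. Hnf4a went the other way, with medians of 78.6 CPM in homozygous guts and 48.7 CPM in wild-type guts. Whether Foxd1 shares a source with any of these genes was not tested. Of the genes beside the B4 deletion, Sim1 was called higher in gut (1.71 ± 0.66, adjusted p = 0.0384), with 0.355, 0.343, 0.211 and 2.26 CPM in guts against 0, 0.164 and 0.717 CPM in lungs. The call rested on A44, without which the log2 fold change was 0.31 (adjusted p = 0.689), and it was also lost without any 1 of 6 lungs (adjusted p up to 0.0748). Sim1 was -0.21 in homozygous embryos alone, while Rfx6 was not called (-0.83 ± 0.43, adjusted p = 0.114), except without E5420-07 and E5420-09 (-0.97, adjusted p = 0.0156). Lhx5, beside the B2 deletion, had at most 0.114 CPM in any of the 16 libraries.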

How the data were processed

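RNA-seq libraries of 4 guts and 12 lungs were compared at E11.5. The authors deposited, for each library, expected counts per gene, estimated with RSEM after STAR had mapped paired reads of 150 bp to mm10 with GENCODE M4 genes. The library kit and strand are not given in the sources used here. Of 69690 entries per table, 43346 Ensembl genes were kept, expected counts were rounded, and the TPM and FPKM columns were not used here. No 2 replicates agreed within sampling noise (lowest chi-square per gene 6.69).

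Genes were filtered with filterByExpr by organ, so that a gene could pass on the 4 guts alone, scaled with TMM and tested with edgeR 4.0.16 (quasi-likelihood, genotype and organ as terms, R 4.3.3), with Benjamini-Hochberg adjustment over all tested genes and a threshold of 0.05. The procedure was tested on simulated data. Errors are standard errors derived from the fold change and its F statistic. Named genes were fixed key genes, the 15 furthest called genes in each direction (at least 10 CPM in the higher organ, no overlap, a proper symbol), up to 6 called members of each list and direction, and Hox genes. Other members of the lists were named outside these rules, among them Afp, Ptch1, Wnt5a, Bmp4, Bmp7, Gcg, Dkk2, Rspo1, Pecam1, Vil1 and Cdh17. Genes chosen by value, such as Foxd1, are marked where they are named. A few genes that these rules would name are not reported here. Members and lists were chosen with earlier results of these data known. Alternatives were DESeq2 1.42.0, other scaling factors, no filter, no genotype term, subsets of the libraries, a test against a log2 fold change of 1 and, chosen after seeing the data, protein-coding genes alone and TMM within 10 classes of transcript length.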

Additional observations from a re-analysis of the deposited data

Results flagged for a closer look

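For 45 of the named genes, values were searched for a library far from the others of its group, taken as the 4 guts, the 6 homozygous lungs or the 6 wild-type lungs. Of 135 such groups 30 held a value that stood apart. The limit used gives about 1 in 20 by chance for independent groups of normally distributed values. These groups share the same libraries, so the count cannot be read against that rate. All values are in CPM.

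The wild-type lung E5420-07 gave 15 of them. It was above the other 5 wild-type lungs for Sox2 (16.4, against 3.04 to 6.79), Tbx2 (537.1), Tbx4 (159.5), Wnt2 (86.1), Irx1 (96.9), Irx2 (74.6), Foxf2 (35.8), Hlx (72.7), Foxa2 (55.0), Gata6 (105.5), Foxf1 (287.2), Epcam (78.8), Des (65.9) and Pdx1 (0.187), and below them for Foxp2 (47.6, against 114.3 to 145.9). The wild-type lung E5420-09 stood apart for Cdh1 (46.1, against 20.2 to 25.8).

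The homozygous lung E5403-10 gave 9. It was above the other 5 homozygous lungs for Gata4 (96.1, against 53.7 to 64.7), Barx1 (6.77, against 1.09 to 2.62), Isl1 (23.7), Hand1 (1.35) and Cdx2 (0.119), and below them for Tbx2 (126.9), Irx1 (26.8), Foxa2 (12.9) and Cdh1 (14.3). It was the only homozygous lung of embryo code E5403. In the homozygous lung E5420-05, Hnf4a was low (0.332, against 1.97 to 2.76).

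Among the guts, 4 values stood apart from those of the other 3. The wild-type A42 was high for Sox2 (8.54, against 4.84 to 4.96). The homozygous A43 was high for Cdx2 (6.19, against 1.48 to 2.10), the homozygous A41 for Barx1 (74.4, against 49.2 to 52.6) and the wild-type A44 for Sim1 (2.26, against 0.211 to 0.355).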

How the results depend on the processing

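The number of genes called was 3276 (1807 higher and 1469 lower in gut) with wild-type embryos alone, 2546 (1286 higher and 1260 lower) when tested against a log2 fold change of 1, and 5767 (3013 higher and 2754 lower) with female lungs alone, against 11335 with male lungs alone and 11427 with homozygous embryos alone. E5420-07 and E5420-09 are both female and wild-type, so they were in the wild-type and female sets but not in the male or homozygous sets. Without these lungs 12235 genes were called. A part of sex or genotype in these counts was not tested. Leaving out 1 library at a time gave 7553 to 11965 called genes (3760 to 6016 higher, 3759 to 5949 lower), the highest without E5420-07. The difference of the organ effect between genotypes gave 32 calls without E5420-07 and E5420-09 and 21 with DESeq2, against 0 with edgeR on all libraries. Of the 133 called genes named here, all kept their call without E5420-07 and E5420-09, and 130 to 132 kept it under DESeq2, other factors, no filter, no genotype term or scaling by length class. Of those that could be tested, 109 of 132 kept it in wild-type embryos alone, 130 of 133 in homozygous embryos alone and 113 of 115 among protein-coding genes alone. Leaving out 1 library ended 9 calls and reversed none. The log2 fold change of Sim1 turned to -0.21 in homozygous embryos alone. Uncalled genes that turned sign were, in homozygous embryos alone, Foxf2 (0.068), Gata6 (0.18) and Isl1 (-0.065), without E5420-07 and E5420-09 Gata6 (0.070) and Isl1 (-0.047), and scaled by length class Acta2 (-0.014) and Isl1 (-0.12). Leaving out 1 library gave -0.025 to 0.39 for Acta2, -0.37 to 0.024 for Foxf2, -0.11 to 0.083 for Gata6 and -0.078 to 0.20 for Isl1, and -0.53 (without A42) to 0.95 for Hoxa13 and -0.34 (without A42) to 1.34 for Hoxd13. The cause was not tested. No paired analysis was possible because gut and lung came from different lines and embryos, and replicate numbers were given in accession order. Levels under 1 CPM rest on few counts, and guts number 2 per genotype.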
